A study of Tupaia belangeri with 6 samples.

Results

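Serotonin receptors were examined in RNA sequencing of the prefrontal cortex (PFC) of adult tree shrews (Tupaia belangeri). Members were the rows of the deposited gene tables whose gene name was HTR1A, HTR1B, HTR1D, HTR1F, HTR2A, HTR2C, HTR3A, HTR4, HTR6 or HTR7, without gene-like copies, and 8 of these 10 names had a row among the 95863 loci of the tables. The study compared 3 females (numbered 1, 3 and 4) with 3 males (numbered 1, 4 and 5), with 1 library for each animal. The labels give no treatment and no altered gene for any animal. In the study's sample sheet the males are all older than the females, and effects of age and sex cannot be told apart here.

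Serotonin reaches the cortex along axons of the raphe nuclei in the brainstem, and what it does to a cortical cell depends on the receptors that the cell makes. Nearly all serotonin receptors are G protein-coupled: the HTR1 receptors act through Gi/o and lower cyclic AMP, the HTR2 receptors act through Gq and phospholipase C, and HTR4, HTR6 and HTR7 act through Gs and raise cyclic AMP. The HTR3 receptors are the exception, since they are cation channels opened by serotonin. In cortex, HTR2A on pyramidal neurons and HTR1A on pyramidal neurons and interneurons are known for opposite effects on excitability.

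Levels are given as TPM (transcript abundance scaled to gene length and to the library total), so receptors can be set side by side. The gene tables hold no counts and TPM does not carry the depth, so the number of reads behind a value was not derived, and the mean coverage per base is given in its place. The cortical label was borne out by SLC17A7, the vesicular glutamate transporter of cortical excitatory neurons, at 783 to 1569 TPM, and by TBR1, a transcription factor of deep-layer cortical neurons, at 183 to 343 TPM. However, RGS9, a G protein regulator enriched in striatal projection neurons, reached 48.0 TPM in female 1, 43.7 TPM in female 3 and 54.6 TPM in male 1, against 0.355 to 1.52 TPM in the other 3 libraries. The order of levels, the shares, the ratios and the sex differences are therefore also given without these 3 libraries. In bulk tissue, fewer cells of a type and less RNA per cell cannot be told apart.

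Among the 8 receptors, HTR2A and HTR1D were the most abundant by TPM and HTR4 the least abundant in every library. By mean TPM the order was HTR2A (30.5 ± 9.57 TPM, SD, n = 6), HTR1D (24.9 ± 6.80), HTR2C (11.7 ± 6.44), HTR6 (11.2 ± 1.70), HTR1A (9.85 ± 3.75), HTR7 (5.64 ± 1.67), HTR1B (3.43 ± 1.90) and HTR4 (0.188 ± 0.102). Among the 13736 loci with a symbol and a strand, the mean level of HTR2A stood at percentile 71.9, that of HTR2C at percentile 54.3 and that of HTR4 at percentile 22.0. Of the 28 pairs of receptors, 22 kept 1 direction in 6 of 6 libraries by TPM. By mean coverage per base, HTR2A over HTR1D, HTR2A over HTR2C and HTR6 over HTR7 did not. Without the 3 libraries with high RGS9, HTR2C (6.70 ± 2.44 TPM, SD, n = 3) came after HTR6 (11.987 ± 1.80) and HTR1A (7.31 ± 2.59) and close to HTR7 (6.57 ± 1.86), and the order of the other receptors did not change.

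**Figure D1:**
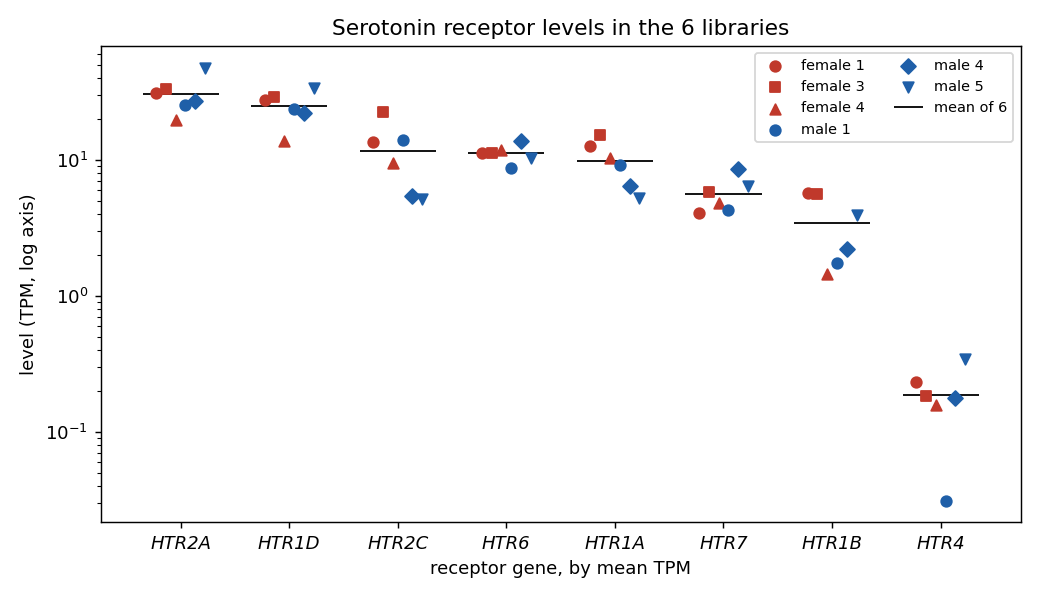
Level of each serotonin receptor (TPM, log axis) in the 6 libraries, ordered by mean TPM, with red symbols for females, blue symbols for males and a bar at the mean. HTR2A and HTR1D lie highest, HTR6 has the narrowest spread in relation to its mean, and HTR4 lies under 0.4 TPM in every library.

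Neighbours in this order were compared within each animal, as the difference in log2(TPM + 0.1), by an exact two-sided sign-flip permutation test. With 6 animals the smallest p this test can give is 0.03125, and the Benjamini-Hochberg adjustment ran over the 7 neighbouring pairs with a threshold of 0.1. HTR2A exceeded HTR1D in 6 of 6 libraries (mean log2 difference 0.29, exact adjusted p = 0.0729), HTR1D exceeded HTR2C in 6 of 6 (1.22, exact adjusted p = 0.0729), and HTR1B exceeded HTR4 in 6 of 6 (3.52, exact adjusted p = 0.0729). In mean coverage per base, which the tables also give, HTR1D instead exceeded HTR2A in 4 of 6 libraries. Coverage was 20.3 to 37.7 for HTR1D and 20.9 to 40.8 for HTR2A, so their order depends on the measure. By coverage, HTR2C also exceeded HTR2A in female 3 (28.1 against 26.5). HTR7 likewise exceeded HTR6 in male 4 (8.68 against 8.12) and male 5 (6.60 against 6.51). HTR1A exceeded HTR6 by coverage in every library except male 4 (7.71 against 8.12). The middle of the order was not resolved. In TPM, HTR2C and HTR6 each led in 3 libraries (mean log2 difference -0.11, exact adjusted p = 0.75), as did HTR6 and HTR1A (0.26, exact adjusted p = 0.474). HTR1A exceeded HTR7 in 4 of 6 libraries (0.75, exact adjusted p = 0.175) and HTR7 exceeded HTR1B in 5 of 6 (0.84, exact adjusted p = 0.164). The order was taken from the same values that were tested.

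By TPM the Gq-coupled receptors were led by HTR2A, the main excitatory serotonin receptor of pyramidal neurons and the target of classical hallucinogens. It lies on chromosome 8 of the TS_3.0 assembly, minus strand, from 6467696 to 6550705. HTR2A measured 30.9 TPM in female 1, 33.2 in female 3, 19.6 in female 4, 25.2 in male 1, 26.9 in male 4 and 47.6 in male 5. Male 5 was thus the highest library and female 4 the lowest, with the sexes overlapping. Mean coverage over the locus was 20.9 to 40.8 per base. An unnamed locus on the opposite strand spans the whole of HTR2A and was listed at 0.671 to 5.98 TPM. As no strand-specific library protocol is stated, reads of such overlapping loci cannot be told apart.

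HTR2C, a Gq-coupled receptor best known from the choroid plexus, striatum and limbic areas, lies on chromosome X, plus strand, from 89888666 to 90246244. It measured 13.6 TPM in female 1, 22.3 in female 3, 9.52 in female 4, 14.1 in male 1, 5.46 in male 4 and 5.13 in male 5. Its highest library held 4.33 times the level of its lowest, a coefficient of variation of 55.2%. The 3 high libraries were those with high RGS9, and they included both sexes. Coverage fell from 28.1 per base in the highest library to 6.36 in the lowest, and 6 unnamed loci lie within the HTR2C span.

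Among the Gi/o-coupled receptors, HTR1D was the most abundant in every library. HTR1D, an autoreceptor and presynaptic receptor that restrains transmitter release, lies on chromosome 12, minus strand, from 89826702 to 89849100. It measured 27.3 TPM in female 1, 28.9 in female 3, 13.8 in female 4, 23.5 in male 1, 22.1 in male 4 and 33.6 in male 5. As for HTR2A, female 4 was the lowest library and male 5 the highest. Coverage was 20.3 to 37.7 per base.

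HTR1A, the inhibitory receptor that serves as the somatodendritic autoreceptor of raphe neurons and as a postsynaptic receptor in cortex, lies on chromosome 10, plus strand, from 7393856 to 7398676. No other locus of the tables overlaps it. HTR1A measured 12.7 TPM in female 1, 15.2 in female 3, 10.2 in female 4, 9.18 in male 1, 6.45 in male 4 and 5.27 in male 5. Every female lay above every male, although female 4 and male 1 differed by little. Coverage was 6.55 to 19.3 per base.

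HTR1B, a presynaptic receptor on the terminals of serotonin neurons and of other neurons, lies on chromosome 3, plus strand, from 86364417 to 86660766. It measured 5.66 TPM in female 1, 5.57 in female 3, 1.46 in female 4, 1.75 in male 1, 2.21 in male 4 and 3.95 in male 5. Its coefficient of variation was 55.3%, and each sex held both high and low libraries. This locus spans 296350 bp, and an unnamed locus on the opposite strand that overlaps it by 1176 bp was listed at 1.06 to 10.1 TPM, above HTR1B in every library except male 4. The HTR1B value is therefore less certain than that of HTR1A.

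By TPM the Gs-coupled receptors were led by HTR6, a receptor found almost exclusively in brain, on chromosome 12, plus strand, from 86579252 to 86607716. HTR6 measured 11.1 TPM in female 1, 11.1 in female 3, 11.9 in female 4, 8.74 in male 1, 13.8 in male 4 and 10.2 in male 5. It was the steadiest of the 8 receptors, with a coefficient of variation of 15.2%. TMCO4 overlaps it on the opposite strand and was listed at 1.73 to 3.50 TPM.

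HTR7, a receptor linked to circadian timing and mood, lies on chromosome 14, minus strand, from 77486828 to 77583839. It measured 4.07 TPM in female 1, 5.77 in female 3, 4.81 in female 4, 4.27 in male 1, 8.51 in male 4 and 6.39 in male 5. Male 4 was the highest library for both HTR6 and HTR7. RPP30, on the opposite strand at 20.5 to 27.8 TPM, overlaps HTR7 by 983 bp.

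HTR4, a receptor that acts in gut motility and in memory circuits, was barely detected. It lies on chromosome 18, minus strand, from 34964033 to 35159809, and measured 0.232 TPM in female 1, 0.183 in female 3, 0.159 in female 4, 0.0314 in male 1, 0.177 in male 4 and 0.345 in male 5. Coverage was at most 0.155 per base, so differences between libraries were not detectable at this depth. FBXO38, which overlaps HTR4 by 7277 bp on the opposite strand, was listed at 6.54 to 11.0 TPM.

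HTR1F, a Gi/o-coupled receptor targeted by migraine drugs, and HTR3A, the obligatory subunit of the serotonin-gated channel and a marker of a class of cortical interneurons, had no row in any of the 6 tables. A missing row means that no locus carries that symbol, and a value of 0 has a similar limit in these tables: GNAI1 and GNAQ, widely expressed G protein subunits, were listed at 0 in every library. The level of HTR1F and HTR3A was therefore not measured here.

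The summed TPM of the 8 receptors was 105.6 in female 1, 122.2 in female 3, 71.5 in female 4, 86.7 in male 1, 85.6 in male 4 and 112.5 in male 5. Gq-coupled receptors made up 37.8% to 46.8% of this sum (median 43.7%) and Gi/o-coupled receptors 35.7% to 43.3% (median 38.9%). By summed coverage per base, Gi/o-coupled receptors instead exceeded Gq-coupled receptors in every library except male 5, so their order depends on the measure. Gs-coupled receptors made up 14.0% to 26.3% of the TPM sum (median 15.1%). The Gs share was highest in male 4 (26.3%) and female 4 (23.6%). Without the 3 libraries with high RGS9 the medians were 40.8% for Gq, 35.9% for Gi/o and 23.6% for Gs. HTR2A alone held 27.1% to 31.4% of the sum in 5 libraries and 42.3% in male 5, where HTR2C held only 4.56%.

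**Figure D2:**
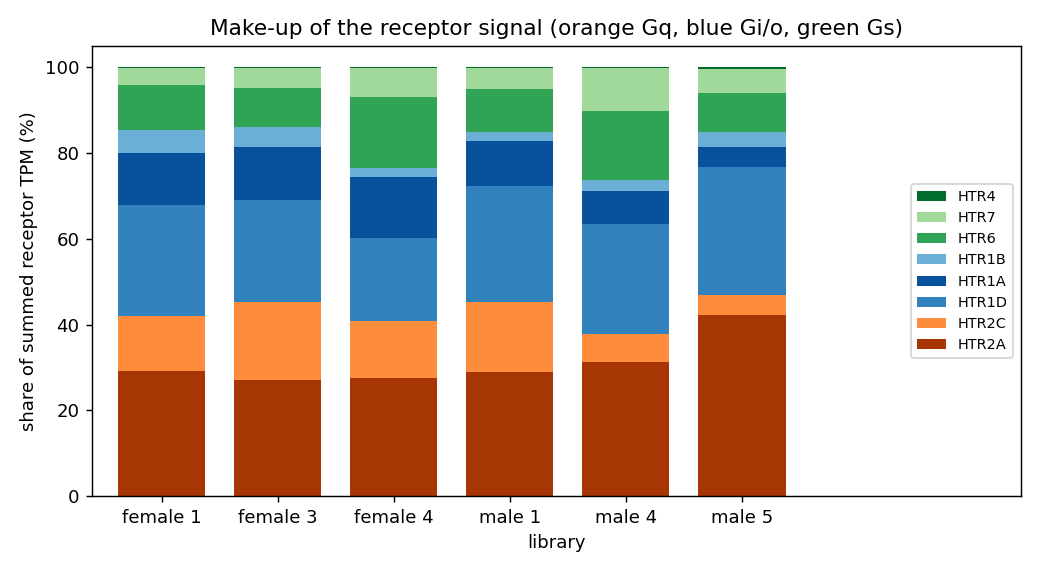
Share of the summed receptor TPM (%) held by each receptor in each library, with Gq-coupled receptors in orange, Gi/o-coupled receptors in blue and Gs-coupled receptors in green. HTR2A and HTR1D form the largest blocks in every library, and the HTR2C block ranges from 4.56% in male 5 to 18.2% in female 3.

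In TPM, the ratio of HTR2A to HTR1D was the steadiest of the 28 ratios between receptors over all 6 libraries. It was 1.13 in female 1, 1.15 in female 3, 1.42 in female 4, 1.07 in male 1, 1.22 in male 4 and 1.41 in male 5, although each receptor varied 2.4-fold over the libraries (2.42 for HTR2A, 2.44 for HTR1D). Its SD on the log2 scale was 0.17, followed by 0.31 for HTR6 to HTR7 and 0.36 for HTR2C to HTR1A. Without the 3 libraries with high RGS9 the SD was 0.13 for HTR2A to HTR1D, and smaller for HTR2A to HTR1B (0.090), HTR2C to HTR1A (0.10) and HTR1D to HTR1B (0.12), so HTR2A to HTR1D was then not the steadiest ratio. The ratio of HTR2A to HTR1A varied far more, with 1.92 to 2.42 in the females against 2.74 in male 1, 4.17 in male 4 and 9.02 in male 5. By mean coverage per base, the ratio of HTR2A to HTR1D was less steady than by TPM. It ran from 20.9 against 34.4 in female 1 to 40.8 against 37.7 in male 5. All these ratios are descriptions over 6 libraries that share their own scaling, and were singled out after their values were seen.

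**Figure D3:**
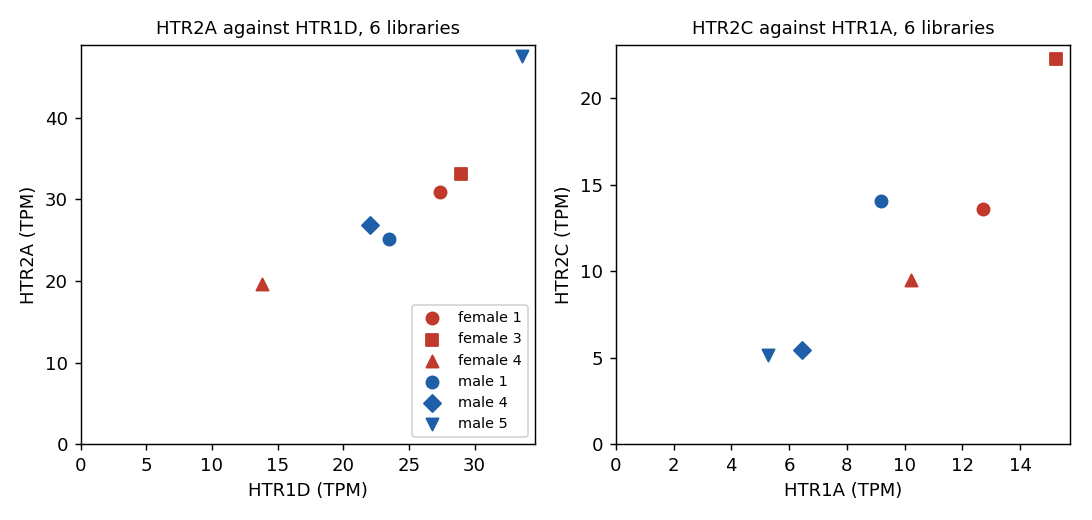
HTR2A against HTR1D (left) and HTR2C against HTR1A (right), both axes in TPM from 0, with 1 symbol for each library (red female, blue male). HTR2A stays at 1.07 to 1.42 times HTR1D, while males 4 and 5 lie lowest for both HTR2C and HTR1A.

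The TPM rank of HTR2C followed the libraries with high RGS9. In female 1, female 3 and male 1, HTR2C ranked 3 among the receptors, above HTR6 and HTR1A. In female 4, male 4 and male 5 it lay below both. By mean coverage per base, however, HTR2C in female 4 (14.6) lay above HTR6 (8.85) and below HTR1A (15.7). Of 10 striatal projection neuron markers, 5 had a row, and their summed TPM was 383 in female 1, 371 in female 3 and 557 in male 1, against 163 in female 4, 179 in male 4 and 136 in male 5. TAC1, the substance P precursor, reached 232 TPM in male 1. DRD2, PPP1R1B, ADORA2A and GPR6, which help to define these cells, had no row, while DRD1 was low (at most 7.06 TPM) and did not separate these libraries. HTR5B, a receptor subtype outside the member list, was listed at 0.712, 0.812 and 0.641 TPM in the same 3 libraries and at 0 in the other 3. These HTR5B values are low, and a listed 0 has the limit given above for GNAI1 and GNAQ. The part of striatal tissue in the HTR2C values was not tested.

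Markers of the choroid plexus, where HTR2C is abundant in mammals, were low. For this list 5 of 7 genes had a row, with a summed level that ran from 3.85 to 8.59 TPM among females and from 2.43 to 10.6 TPM among males. TTR, its most abundant product, was at 0.333 to 6.39 TPM and OTX2 was listed at 0. FOLR1, the most abundant of the list by mean TPM, ran from 0.0726 TPM in female 3 to 8.86 TPM in male 5, and TTR was highest in female 3. The part of choroid plexus tissue in the HTR2C values was not tested.

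The genes with the profile nearest to a receptor were sought for the 3 receptors with the largest SD of log2(TPM + 1), by the root mean square difference of centred log2(TPM + 1) over the 6 libraries, among 9583 named genes. HTR2C was nearest to TSORF (0.16), LHFPL3 (0.20) and FOLH1 (0.20), against a median distance of 0.72. HTR1B was nearest to TOR1AIP2 (0.14), AP4M1 (0.17) and ANO5 (0.18), against a median of 0.58. HTR1A was nearest to SLAIN1 (0.099), RBM38 (0.10) and HAPLN4 (0.12), against a median of 0.53. With so many candidates and 6 libraries, such closeness is a description of these libraries.

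The comparison of the sexes asked which receptors differ between female and male PFC. None of the 8 receptors was called different, and HTR1A and HTR2C showed the largest female minus male differences. The test was limma on log2(TPM + 1), a scale that understates changes of weak genes, over all loci that reached 0.1 TPM in at least 3 animals. With Benjamini-Hochberg adjustment and a threshold of 0.1, limma called 0 of the 7 autosomal receptors, where 0.0143% of 27996 autosomal genes were called, and did not call HTR2C, where 0.134% of 744 X-linked genes were called. At an unadjusted p under 0.05 limma gave 1 of 8 receptors, against 5.01% of the 28740 genes tested. The median difference was 0.045 over the receptors and -0.032 over all genes tested.

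The receptor under that unadjusted threshold was HTR1A, with 12.7 ± 2.504 TPM in females (SD, n = 3) and 6.97 ± 2.003 TPM in males (SD, n = 3). Its log2 difference was 0.80 (SE 0.31, limma, Benjamini-Hochberg adjusted p = 0.925), and it was the only receptor whose sexes did not overlap. Over all genes tested, 4.82% had every female above every male, and 9.81% had sexes that did not overlap in either direction. HTR2C measured 15.1 ± 6.51 TPM in females and 8.23 ± 5.08 TPM in males, with overlapping sexes and a log2 difference of 0.86 (SE 0.44, limma, Benjamini-Hochberg adjusted p = 0.967). Without the 3 libraries with high RGS9, 1 female and 2 males remained, and the log2 difference was 0.72 for HTR1A and 0.74 for HTR2C, while HTR1D came to -0.93 (SE 0.39) and HTR2A to -0.84 (SE 0.49). With the striatal markers as a covariate over all 6 libraries, it was 0.65 for HTR1A and 0.54 for HTR2C. With all libraries and no covariate, the other 6 receptors had log2 differences from -0.30 for HTR7 to 0.43 for HTR1B, each smaller than its SE.

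**Figure D4:**
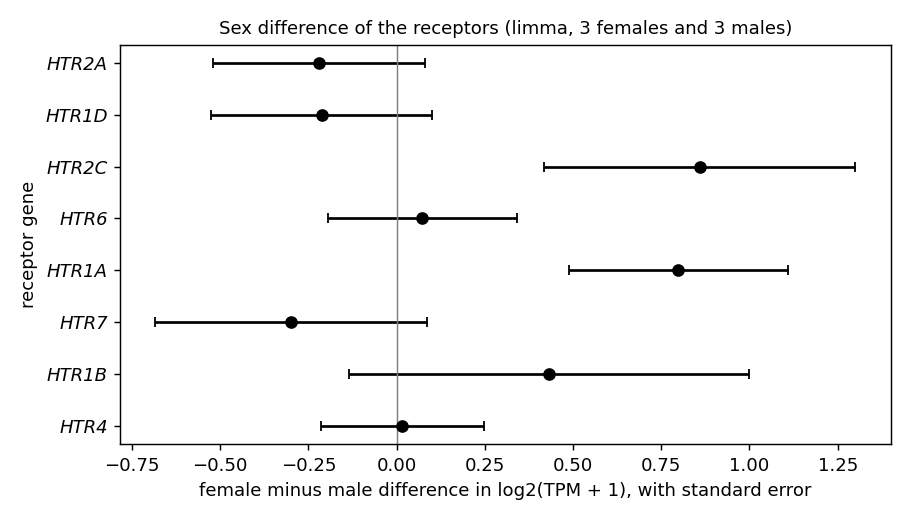
Female minus male difference in log2(TPM + 1) for each receptor, with bars of 1 standard error from limma on 3 females and 3 males. HTR2C (0.86) and HTR1A (0.80) lie farthest from 0, and the bars of the other 6 receptors cross 0.

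Markers of other cells were set beside the HTR1A difference. For the oligodendrocyte list 4 of 6 genes had a row, none of these was at 0 and limma called 0 of them, with 2 at an unadjusted p under 0.05 (5.01% of all genes tested). Their summed TPM was 390 to 556 in the females, against 291 in male 1, 144 in male 4 and 99.9 in male 5. MAG, a myelin adhesion protein, measured 346, 247 and 323 TPM in females 1, 3 and 4 and 146, 89.3 and 63.4 TPM in males 1, 4 and 5. MOG, a myelin surface protein, measured 126, 87.3 and 63.0 TPM in those females and 76.4, 26.4 and 10.2 TPM in those males. MAG, the largest part of the sum, was the only one of the 4 whose sexes did not overlap (9.81% of all genes tested). OPALIN was at 31.3 to 74.5 TPM among females against 18.6 to 55.9 TPM among males, and MBP at 9.79 to 13.7 TPM among females against 7.07 to 13.6 TPM among males. A covariate chosen after the data were seen was the sum of log2(TPM + 1) over these 4 oligodendrocyte markers. With it the HTR1A difference was 0.33 (SE 0.44) and that of HTR2C was -0.043 (SE 0.54). Hemoglobin genes were higher in females by far more. HBQ1 measured 723 to 1253 TPM among females against 22.3 to 54.4 TPM among males, and HBG 549 to 1286 and 26.5 to 46.0 TPM, both called by limma (Benjamini-Hochberg adjusted p = 0.00976). The blood list, with 3 of 5 genes listed, summed to 1275 to 2542 TPM among females against 62.7 to 101 TPM among males. In the endothelial list 2 of 5 genes had every female above every male (4.82% of all genes tested). These were CLDN5 (33.5 to 60.7 TPM in females, 23.2 to 28.9 TPM in males) and FLT1 (27.1 to 31.7 and 23.2 to 26.8 TPM). The list had a median log2 difference of 0.25, with 3 genes higher in females by mean and 2 in males. Those higher in males were PECAM1 (-0.20) and CDH5 (-0.12). In this list limma called 0 genes, and 1 was at an unadjusted p under 0.05 (5.01% of all genes tested). CLDN5 and FLT1 were singled out after their values were seen. The neuron, astrocyte and microglia lists had 0 called by limma. Under an unadjusted p of 0.05 (5.01% of all genes tested) were 1 excitatory gene, NEUROD6 (log2 difference -0.43), and 1 astrocyte gene, ALDH1L1 (1.09). The median log2 difference was 0.13 over 7 excitatory neuron genes (6 higher in females by mean, 1 in males) and -0.068 over 11 interneuron genes (4 and 7). It was -0.012 over 4 astrocyte genes (2 and 2) and -0.24 over 4 microglia genes (0 and 4), against -0.032 over all genes tested. The part of any of these cells in the HTR1A values was not tested beyond that covariate, and blood content and sex cannot be told apart in these animals.

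**Figure D5:**
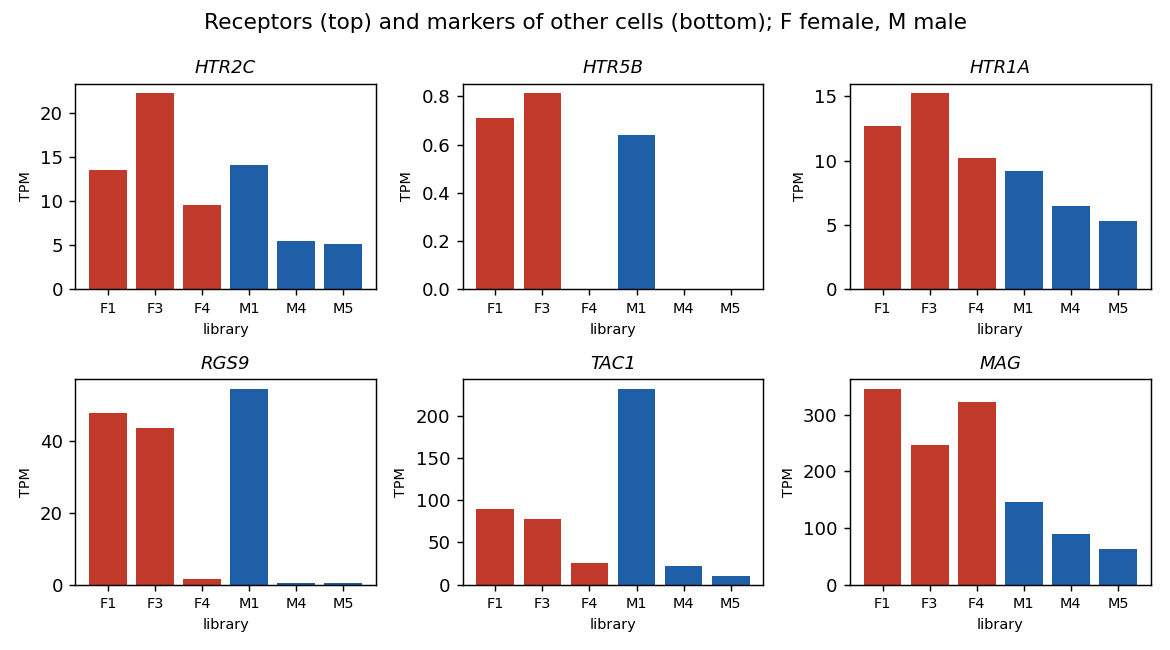
Level (TPM, bars from 0) of HTR2C, HTR5B and HTR1A in the upper row and of RGS9, TAC1 and MAG in the lower row, for females 1, 3 and 4 (red) and males 1, 4 and 5 (blue). HTR2C, HTR5B (at most 0.812 TPM) and RGS9 are highest in F1, F3 and M1, while HTR1A and MAG are higher in each female than in each male.

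Of 8 other receptor subtypes, HTR5B, HTR2B and HTR3B had a row, and HTR1E, HTR3C, HTR3D, HTR3E and HTR5A did not. HTR2B, known from heart valves and gut, was at most 0.254 TPM and was listed at 0 in female 4, male 4 and male 5. HTR3B, an accessory channel subunit, ranged from 0 to 0.516 TPM. HTR5B and HTR3B passed the filter, and limma called 0 of these 2, with 0 at an unadjusted p under 0.05 (5.01% of all genes tested), a count too small to read against that share.

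Of 17 genes of serotonin synthesis, transport and breakdown, 14 had a row, 10 passed the filter and limma called 0, with 1 at an unadjusted p under 0.05 (5.01% of all genes tested). TPH2, the rate-limiting enzyme in raphe neurons, was at 0 to 1.30 TPM, TPH1, its peripheral counterpart, at 1.37 to 3.06 TPM, and DDC, the next enzyme, at 0.35 to 1.16 TPM. SLC6A4, the serotonin transporter, was at most 0.129 TPM, and SLC18A2, the vesicular monoamine transporter, was listed at 1.62 TPM in female 1 and at 0 elsewhere. The 5 markers of serotonergic neurons reached a summed level of 1.75 to 3.22 TPM among females and 0.357 to 1.85 TPM among males. MAOA, which breaks serotonin down, was at 42.7 to 66.4 TPM, and MAOB had no row.

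The most abundant gene of this list was QDPR, which regenerates the cofactor of tryptophan hydroxylase. QDPR measured 607, 490 and 569 TPM in females 1, 3 and 4 and 443, 371 and 246 TPM in males 1, 4 and 5, so the sexes did not overlap. SLC29A4, a low-affinity monoamine transporter (15.2 to 17.8 TPM in females, 8.42 to 14.8 TPM in males), and TPH1 also had every female above every male, which makes 3 of the 10 genes tested, against 4.82% of all genes tested. For TPH1 this was a near tie, with 2.098 TPM in the lowest female and 2.0797 TPM in the highest male (log2 difference 0.30, SE 0.47). For QDPR the log2 difference was 0.69 (SE 0.25, limma, Benjamini-Hochberg adjusted p = 0.925), and it was the 1 gene of the list under the unadjusted threshold. SLC18A1 and ASMT, the least abundant, were listed at 0 in every library.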

How the data were processed

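Polyadenylated RNA of 6 PFC samples was sequenced as paired-end reads, which the authors mapped to TS_3.0 with HISAT2 2.2.1 and assembled and measured with StringTie 2.2.1. The deposited tables hold TPM, FPKM and coverage per locus. The deposited TPM values are scaled to length and library, the deposited FPKM values were used as an alternative, and the deposited coverage values are mean depths per base, not scaled to the library. These tables hold no counts, so the reads behind a value were not derived and the authors' count test was not repeated.

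The software was Python 3.11.15 with pandas 2.3.3, numpy 2.4.6, scipy 1.17.1 and, for figures, matplotlib 3.10.9. Rows of 1 gene ID and chromosome were summed. Loci that reached 0.1 TPM in at least 3 of the 6 animals were tested for sex by limma 3.58.1 (R 4.3.3) on log2(TPM + 1) with a mean-variance trend, with Benjamini-Hochberg adjustment within autosomes and within X. The X and chromosome 26 segments that the authors removed were left out. The limma step was tested on simulated data. P-values measure the spread between animals.

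The members and lists were chosen with earlier results of these data known. Named genes are the members, other receptor subtypes, preset serotonin genes, the most and least abundant gene of each list, the nearest profiles of the 3 most variable receptors, and leading markers, a few of which are not reported here. Alternatives covered pseudocount, filter, scaling, FPKM, adjustment, covariates, a block and omitted animals. No sequences are shown.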

Additional observations from a re-analysis of the deposited data

How the results depend on the processing

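In 174 refits of single receptors under the alternatives, 157 kept the direction of the difference, 17 reversed it and 0 passed the threshold, and limma called 0 receptors under each alternative. HTR1A kept its direction in all 22 of its refits (0.33 to 0.99, with a lowest limma Benjamini-Hochberg adjusted p of 0.614). HTR2A turned to 0.087 and HTR6 to -0.097 with the share of loci without strand as a covariate. Without males 1 and 5, HTR2A was 0.016, HTR1D 0.011 and HTR6 -0.26. Without the 3 libraries with the highest RGS9, an alternative added after seeing the data, HTR1B was -0.70, HTR4 -0.12 and HTR6 -0.0067, while HTR1D (-0.93) and HTR2A (-0.84) kept their direction at a larger size. With the oligodendrocyte covariate, also added after seeing the data, HTR2A was 0.18, HTR2C -0.043 and HTR7 0.13. When single animals were omitted, differences ran from -0.38 to 0.063 for HTR2A, from -0.40 to 0.11 for HTR1D, from -0.063 to 0.24 for HTR6, from -0.079 to 0.11 for HTR4, from 0.19 (without female 1) to 0.91 (without female 4) for HTR1B and from -0.52 (without male 1) to -0.096 (without male 4) for HTR7. HTR2C ran from 0.56 without female 3 to 1.28 without male 1. Each receptor that reversed, other than HTR2C, had a difference smaller than its SE with all animals, and the cause was not tested.

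In the replicate block fit (animals 1 and 4 occur in both sexes) 0 receptors were called, with differences of 0.51 for HTR1A and 0.33 for HTR2C. The deviations of same-numbered animals from the mean of their sex correlated at r = 0.00098 and 0.038 over genes. The other pairs of a female and a male ran from -0.059 to 0.063. So few pairs cannot show whether the numbers pair the animals.

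The 3 steps in the order of levels that passed the threshold were also 3 under both other pseudocounts, FPKM and loci with a strand. However, these settings act alike on all receptors of a library and cannot change which is higher. The deposited coverage puts HTR1D above HTR2A in 4 of 6 libraries, so the step between them depends on the measure. With each animal left out, 0 to 0 steps passed, since the smallest exact p that 5 animals give passes the adjustment only where at least 5 of the 7 pairs reach it. HTR6 then stood above HTR2C without female 3 or without male 1. Of all genes tested, 0 to 7 were called over the alternatives against 5.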

Other observations

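Among the G proteins and effectors through which the receptors act, limma called 0 genes different between the sexes. Of 13 genes of the Gi/o list 9 had a row and 7 were tested. RGS4, a regulator that shortens Gi/o and Gq signalling, was its most abundant gene by mean TPM, at 91.2 to 457 TPM. It was lowest in female 4 and highest in male 5, the libraries in which HTR2A and HTR1D were also lowest and highest. ITPR1, PLCB1 and GNA14 of the Gq list had the same lowest and highest libraries. Female 4 also had the fewest loci above 0 (30342, against 32358 to 33114 elsewhere). A link between RGS4 and these receptors was not tested. All 12 genes of the Gq list had a row and 10 were tested. Of 14 genes of the Gs list 12 had a row and all 12 were tested, from GNAS, the Gs alpha subunit, at 789 to 1049 TPM to PDE4D, a cyclic AMP phosphodiesterase, at 0 to 2.999 TPM. In the Gs list, 1 of the 12 genes tested had an unadjusted p under 0.05, and in the other lists 0 of 7 and 0 of 10 did, against 5.01% of all genes tested.

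Of 18 receptor partners, 14 had a row and 13 were tested, with 0 called by limma and 0 at an unadjusted p under 0.05 (5.01% of all genes tested). GRK2, a kinase that desensitizes G protein-coupled receptors, was the most abundant at 286 to 393 TPM. RIC3, a chaperone of the HTR3A channel, was steady at 30.5 to 38.5 TPM although HTR3A had no row. S100A10, which carries HTR1B and HTR4 to the cell surface, was listed at 0 in every library.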
